A study of Mus musculus with 14 samples.

Results

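The angiopoietins, the angiopoietin-like proteins and the vascular endothelial growth factors (VEGFs) are secreted proteins through which connective tissue cells act on blood and lymph vessels. The 6 ligand genes described here are Angpt1, Angpt2, Angptl2, Angptl4, Vegfb and Vegfc, out of 24346 genes with a row in the count table. They were selected on 1 measurement, the near absence of Angpt1 reads from the replicated control libraries, and the others were added as its family by gene symbol, so the Angpt1 levels of the 2 conditions are given as a description without a test. All 6 symbols had a row. Angpt1, Angpt2, Angptl2, Vegfb and Vegfc passed the filter of at least 10 counts in at least 2 libraries, as did 13130 genes in all, and Angptl4 did not.

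The libraries came from MC3T3-E1, a cell line from mouse calvaria that is used as a model of osteoblasts, the bone-forming cells. Polyadenylated RNA was sequenced in 14 libraries, 7 labelled control and 7 labelled as a knockdown of MACF1, a large protein that crosslinks microtubules and actin filaments. Each condition had 2 libraries at day 0, 2 at day 3, 2 at day 5 and 1 at day 10, and the design text calls the replicates biological. No other allele or agent is labelled. The labels used here do not state the medium, the knockdown construct or whether the knockdown line was 1 clone. In the values below, replicate 1 comes before replicate 2, and days follow in the order 0, 3, 5 and 10.

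Macf1 itself did not pass the test between conditions. Averaged over days 0, 3 and 5, its log2 fold change was 0.13 (SE 0.24, edgeR quasi-likelihood test with Benjamini-Hochberg adjustment, adjusted p = 0.724), and it was -0.08 without replicate 2 of the day 3 controls and 0.51 (adjusted p = 2.42e-05) without replicate 1, which leaves replicate 2 alone. The libraries are therefore called "labelled knockdown". At day 10, with 1 library per condition and no test, Macf1 was lower where labelled knockdown. Its counts scaled to library size were 129 there and 195 in control. Totals ran from 8044687 to 23301514 counts per library. That same day 3 control stood apart: it had the lowest total, it correlated with its partner at r = 0.924 where the 5 other pairs lay between 0.987 and 0.989, and ribosomal protein genes took 19.2% of its counts against 5.48% to 11.0% elsewhere. Without it the common dispersion fell from 0.0474 to 0.0115, so the averaged differences of Angpt2, Angptl2, Vegfb and Vegfc are also given without it, and those of other genes where it changed their call. Osteoblast markers were abundant, with summed levels of 8657 to 24430 CPM (counts scaled to library size) in control and 8123 to 16045 CPM in the libraries labelled knockdown. Of the 8 markers, 4 were called lower in the latter, where 11.9% of all genes tested were called lower and 15.0% higher. Among the 4 were Alpl, the alkaline phosphatase of mineralizing cells, at -2.66 (SE 0.13, adjusted p = 6.78e-07) on the log2 scale, and Ibsp, bone sialoprotein, at -3.57 (SE 0.18, adjusted p = 1.21e-06). Spp1, osteopontin, was called higher at 0.60 (adjusted p = 0.0120; 0.18 without day 3, adjusted p = 0.123), but its difference varied between days (joint adjusted p = 0.0284): it was 1.10 on day 0, 1.44 on day 3 and -0.74 on day 5 (adjusted p = 0.103).

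Angpt1 activates the endothelial receptor tyrosine kinase Tie2, the product of Tek, and is known as a ligand from mesenchymal and perivascular cells that stabilizes vessels. Angpt2 binds the same receptor and, depending on context, blocks or weakly activates it. Vegfb binds the receptor Flt1, and Vegfc, once cut by proteases, binds Flt4 and Kdr and is known for driving lymphatic vessel growth. The angiopoietin-like proteins do not bind Tie2: Angptl2 acts through integrins and immune receptors, and Angptl4 inhibits lipoprotein lipase and is a target of the PPAR nuclear receptors. In bone, cells of the osteoblast lineage secrete such factors, and vessel growth and bone formation are coupled.

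Angpt1 lies on the minus strand of chromosome 15 in the GRCm38 build, at chr15:42424723-42676977 (ENSMUSG00000022309.8, 10 exon blocks in the GENCODE annotation). Its control counts were 1 and 0 on day 0, then 0 and 3, then 1 and 2, and 14 on day 10. The counts labelled knockdown were 67 and 73 on day 0, then 584 and 341, then 743 and 442, and 1039 on day 10. The transcript was thus at the edge of detection in every control library, and the 2 conditions did not overlap at any day. Scaled to library size with TMM (trimmed mean of M-values), Angpt1 levels labelled knockdown were 3.64 and 5.08 CPM on day 0, then 29.5 and 24.1, then 31.2 and 29.7, and 60.3 CPM on day 10. The highest control value was 0.717 CPM, the day 10 library.

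The ratio of the summed Angpt1 counts, corrected for library size, was 203 at day 3 and 314 at day 5. At day 0 it rested on 1 control count and was 129. The selection used the control counts of these days, so their ratios are given without an interval. At day 10, with 1 library per condition, it was 84.1, with a 95% exact interval for counting error of 49.9 to 154. This interval covers counting error only, and in bulk RNA fewer cells of a type and less RNA per cell cannot be told apart. As thresholds set after the values were seen, 7 genes of the table had at most 3 counts in each of the 6 replicated control libraries and at least 50 in each of the 6 labelled knockdown: Angpt1, Ap3b2, Blnk, Csmd3, Enthd1, Krt9 and Robo1. No gene (0 of the table) showed the reverse.

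The choice of the family did not use the time course of Angpt1 within the libraries labelled knockdown, which was tested. Angpt1 rose there from day 0 to day 3 by 2.63 on the log2 scale (SE 0.39, edgeR adjusted p = 0.0167) and stood at 2.81 above day 0 on day 5 (SE 0.39, adjusted p = 0.00719). Only 0.906% of all genes tested passed for the first step and 2.0% from day 0 to day 5. The step from day 3 to day 5 was 0.18 (SE 0.36, adjusted p = 1), with 0.0152% of all genes called. With 2 libraries a group these calls were fragile: leaving out any replicate labelled knockdown at days 0, 3 or 5 ended the call to day 3 (adjusted p between 0.0553 and 0.272), and leaving out any at days 0 or 5 ended the call to day 5 (adjusted p between 0.0628 and 0.154), while the estimates stayed between 2.40 and 3.06. The day 10 library held 1.98 times the mean CPM of day 5, with no test.

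Angpt1 shares 737 exon bases with Gm17473, an antisense gene on the opposite strand, which had 1 count in all 14 libraries. Its neighbours on the chromosome were expressed in both conditions. Oxr1, an oxidation resistance gene, differed by 0.65 on the averaged log2 scale (SE 0.17, adjusted p = 0.0174), a call that ended without control replicate 2 of day 0 or either control of day 5 (adjusted p up to 0.0583). Rspo2, a secreted enhancer of Wnt signalling, differed by -0.66 (SE 0.14, adjusted p = 0.00671; 0.0596 with limma on log2(RPKM + 0.1)), and by day by -1.62, 0.45 and -0.82.

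**Figure D1:**
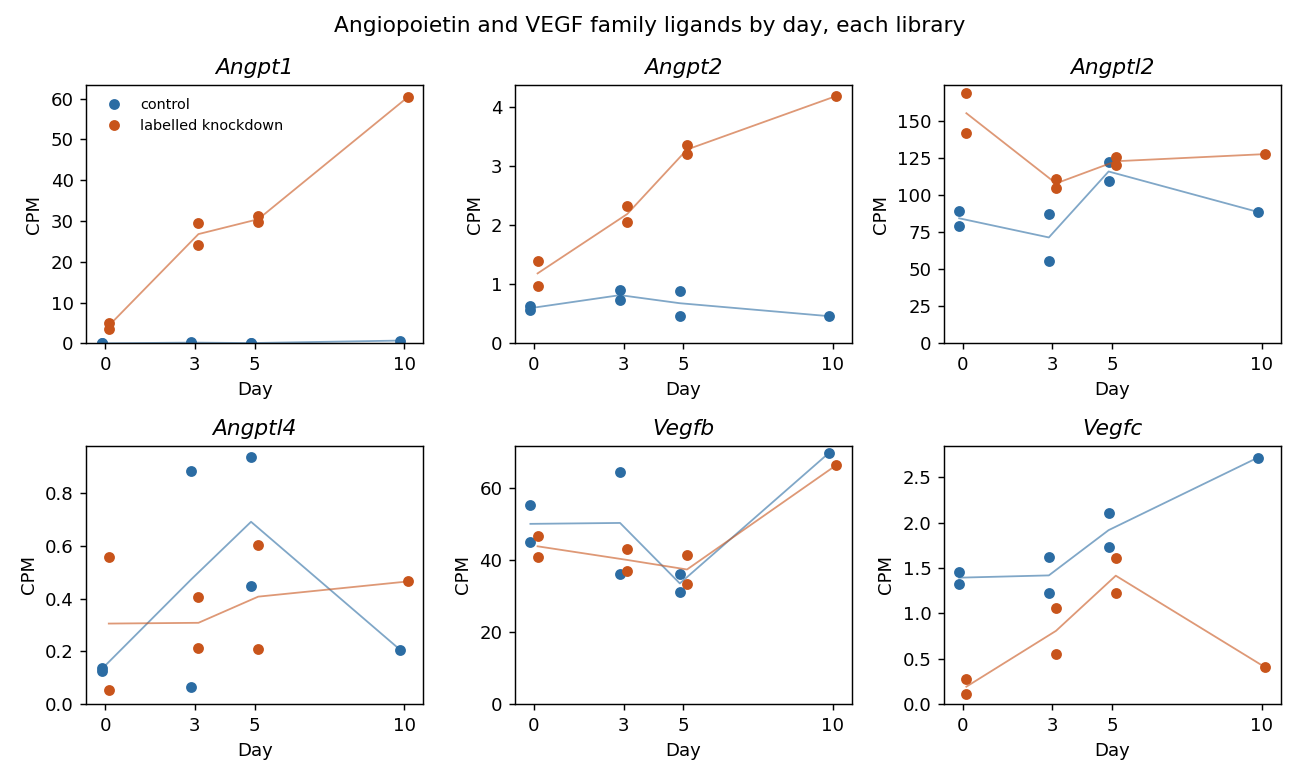
CPM (counts scaled to library size with TMM) of the 6 ligand genes against day, 1 point per library, blue for control and orange for labelled knockdown, with lines through the group means (2 libraries at days 0, 3 and 5, 1 at day 10); each panel has its own axis starting at 0. Angpt1 stays at or below 0.717 CPM in control and reaches 60.3 CPM in the day 10 library labelled knockdown, Vegfc runs below control, and the points of Vegfb and Angptl4 overlap.

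Angpt2 was also higher in the libraries labelled knockdown, at far lower levels. It lies at chr8:18690263-18741562 on the minus strand (ENSMUSG00000031465.6), inside the span of Mcph1 on the opposite strand with 0 shared exon bases. Its counts in control were 9 and 9 on day 0, then 14 and 5, then 16 and 6, and 9 on day 10. The counts labelled knockdown were 18 and 20, then 46 and 29, then 76 and 50, and 72. Each of the 6 replicated libraries labelled knockdown lay above both controls of its day, an ordering that 13.7% of all genes tested showed. Control levels stayed between 0.461 and 0.899 CPM, and those labelled knockdown were 0.977 and 1.39 CPM on day 0, then 2.32 and 2.05, then 3.19 and 3.36, and 4.18 CPM on day 10.

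The averaged log2 fold change of Angpt2 was 1.52 (SE 0.24, adjusted p = 0.00122; 1.48 with adjusted p = 0.000515 without replicate 2 of the day 3 controls). In this comparison 26.9% of all genes tested were called, 15.0% higher and 11.9% lower. Taken by day the difference was 0.97 on day 0 (adjusted p = 0.237), 1.38 on day 3 (adjusted p = 0.0530) and 2.22 on day 5 (SE 0.39, adjusted p = 0.00716); 7.09%, 12.6% and 7.78% of all genes were called on those days. The day 5 call ended without control replicate 2 of day 5 (1.87, adjusted p = 0.0787). The test of the difference across days, joint over both interaction terms, did not pass (adjusted p = 0.640; 0.998% of all genes passed), so the increasing estimates are not shown to differ. Within the libraries labelled knockdown, Angpt2 at day 5 was 1.47 above day 0 (SE 0.37, adjusted p = 0.0880) and passed with DESeq2 (adjusted p = 0.0432). Mcph1, which overlaps it, had an averaged value of 0.34 (adjusted p = 0.126), and passed as higher without either day 3 control (0.53 without replicate 1 and 0.21 without replicate 2).

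Across the 14 libraries the log2 CPM of Angpt1 and Angpt2 correlated at r = 0.90, a description of points that share conditions, days and libraries. Among 9590 genes with a mean of at least 5 CPM, those most like Angpt1 were Slc35e3 (r = 0.965), Cpq (r = 0.953) and Prkab2 (r = 0.951). None of them was off in control: Slc35e3 ran from 67.8 to 80.6 CPM there and from 88.8 to 109 CPM in the libraries labelled knockdown. Most like Angpt2 were mt-Nd5 (r = 0.953) and mt-Nd2 (r = 0.950), subunits of mitochondrial complex I, and Adamts1 (r = 0.949), a secreted metalloprotease.

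Angptl2 was a well expressed ligand in every library. It lies at chr2:33216069-33247717 on the plus strand (ENSMUSG00000004105.7), within Ralgps1 on the opposite strand with 0 shared exon bases. RefSeq promoters matched 3 of the 6 ligands by symbol, and 2 are shown because Angptl2 and Vegfc were the replicated calls in opposite directions at day 0. The windows are the 250 bases before the RefSeq start (GRCm38.p6), chr2:33215711-33215960 on the plus strand for Angptl2 and chr8:54077282-54077531 on the plus strand for Vegfc. The RefSeq start of Angptl2 lies upstream of its GENCODE start. Capitals mark CAGCTG, an E-box.
Angptl2: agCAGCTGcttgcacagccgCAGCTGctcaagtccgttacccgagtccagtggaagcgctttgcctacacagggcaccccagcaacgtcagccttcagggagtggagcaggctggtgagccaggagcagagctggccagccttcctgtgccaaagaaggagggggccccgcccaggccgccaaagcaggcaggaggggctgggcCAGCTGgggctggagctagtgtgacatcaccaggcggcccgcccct
Vegfc: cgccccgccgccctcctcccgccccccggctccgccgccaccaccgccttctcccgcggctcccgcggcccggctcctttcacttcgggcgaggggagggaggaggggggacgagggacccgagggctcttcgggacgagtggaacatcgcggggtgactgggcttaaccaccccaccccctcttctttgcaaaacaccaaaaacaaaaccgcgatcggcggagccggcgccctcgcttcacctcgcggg

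Promoter windows were rich in G and C, 66.8% for Angptl2 and 71.6% for Vegfc, beside 76.4% for Vegfb and a median of 52.4% over 32851 promoters of the table. The 3 windows were searched on both strands for CTTTGA (the TCF/LEF core), TGTGGT (the Runx core), ACGTG (the hypoxia element core) and CAGCTG, which reads the same on both strands; the words found do not overlap. Angptl2 holds CAGCTG at 248, 230 and 46 bases before the start, a word found in 13.0% of all promoters of the table, and no other of these words. The letters of the 4 words are not in the windows of Vegfc and Vegfb; CTTTGA is in 13.8%, TGTGGT in 14.0% and ACGTG in 16.6% of all promoters.

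Control levels of Angptl2 were 79.3 and 89.4 CPM on day 0, then 87.1 and 55.8, then 109 and 122, and 88.6 CPM on day 10. Levels labelled knockdown were 142 and 169 CPM, then 105 and 111, then 120 and 126, and 128 CPM. At days 0 and 3 both libraries labelled knockdown lay above both controls, and at day 5 the conditions overlapped. The share of all genes with such an order at a single day was not counted, so this is a description. The averaged log2 fold change was 0.52 (SE 0.13, adjusted p = 0.0133), and 0.42 (adjusted p = 0.000364) without replicate 2 of the day 3 controls. This call ended without control replicate 1 of day 5 (0.47, adjusted p = 0.0607).

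Taken by day, Angptl2 differed by 0.88 at day 0 (SE 0.22, adjusted p = 0.0384), by 0.59 at day 3 (adjusted p = 0.0992; on day 3 edgeR and DESeq2 called 0 of the 4 ligands tested, 2 of which had an unadjusted p under 0.05) and by 0.08 at day 5 (95% interval -0.40 to 0.57, adjusted p = 0.887). The day 0 call ended with limma on log2(RPKM + 1) (adjusted p = 0.107 or 0.0973 with a pseudocount of 0.1) and on leaving out each replicate other than the day 3 controls. The joint test between days did not pass (adjusted p = 0.565) but did without either day 3 control (adjusted p = 0.00153 without replicate 1 and 0.0150 without replicate 2). Within the libraries labelled knockdown the change from day 0 to day 3 was -0.52 (adjusted p = 0.398). Ralgps1, the gene that spans it, was itself called higher at 0.63 (SE 0.16, adjusted p = 0.0171) but at 2.80 CPM on average in control against 4.21 CPM; the call ended without control replicate 1 of day 0 or 2 of day 5, or labelled knockdown replicate 2 of day 0, 1 of day 3 or 1 of day 5 (adjusted p up to 0.0559).

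With all 14 libraries in the fit, Vegfc was the ligand called lower. It lies at chr8:54077606-54187096 on the plus strand (ENSMUSG00000031520.5). Its control counts were 21 and 21 on day 0, then 19 and 11, then 31 and 27, and 53 on day 10. The counts labelled knockdown were 2 and 4, then 11 and 15, then 29 and 24, and 7. On the CPM scale every replicated library labelled knockdown lay below both controls of its day, an ordering that 9.55% of all genes tested showed. The controls held 1.33 and 1.46 CPM on day 0, then 1.22 and 1.62, then 1.73 and 2.10, and 2.72 CPM on day 10. The levels labelled knockdown were 0.109 and 0.278 CPM, then 0.556 and 1.06, then 1.22 and 1.61, and 0.406 CPM. The estimated gap was smaller at day 5 than at day 0, but the joint test between days did not pass. The gap at day 10 rests on 1 library per condition.

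The averaged log2 fold change of Vegfc was -1.37 (SE 0.29, adjusted p = 0.00708; -1.32 with adjusted p = 0.00422 without replicate 2 of the day 3 controls). At day 0 it was -2.86 (SE 0.57, adjusted p = 0.0135), a call that ended without control replicate 1 or 2 or labelled knockdown replicate 1 of that day (adjusted p = 0.0637, 0.0789 and 0.158), with estimates from -3.59 to -2.29 over the replicates left out. At day 3 it was -0.80 (adjusted p = 0.275) and at day 5 -0.44 (adjusted p = 0.648). Within the libraries labelled knockdown Vegfc rose by 2.87 from day 0 to day 5 (SE 0.56, adjusted p = 0.0316), from 6 to 53 summed counts, and this call ended on leaving out any replicate of days 0 or 5, of either condition (adjusted p between 0.0638 and 0.332); the estimate was 2.30 without labelled knockdown replicate 1 of day 0 and 3.60 without replicate 2. The joint test between days did not pass (adjusted p = 0.394; 0.0450 without replicate 1 of the day 3 controls). At day 10 the control library again held more, 6.68 times the CPM of the library labelled knockdown, with a counting interval of 3.03 to 17.4 and no replicate check.

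**Figure D2:**
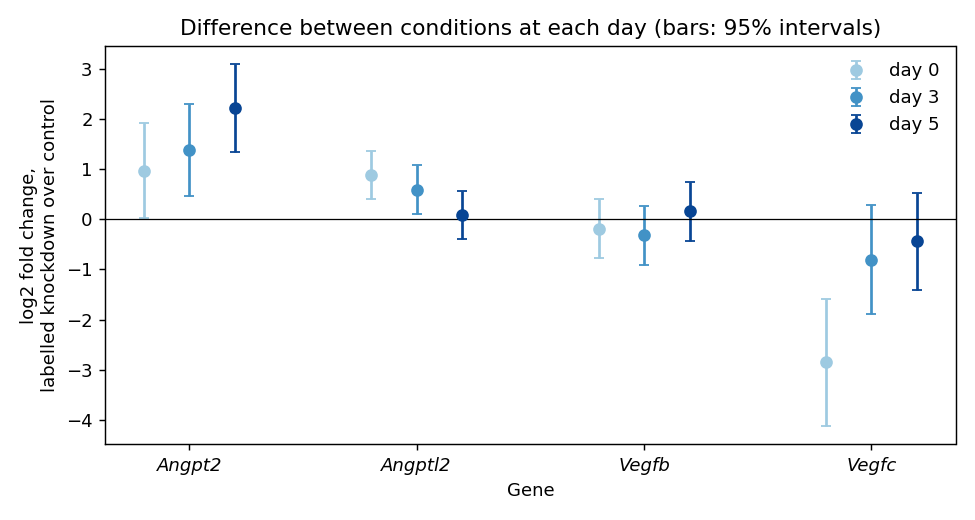
Log2 fold change, labelled knockdown over control, of Angpt2, Angptl2, Vegfb and Vegfc at day 0, day 3 and day 5 (light to dark blue), as points with 95% intervals from the edgeR fit; 2 libraries a group, and the line marks no difference. Angpt2 lies at 0.97, 1.38 and 2.22, Angptl2 at 0.88, 0.59 and 0.08, and Vegfc at -2.86, -0.80 and -0.44, while the intervals of Vegfb include 0 at each day.

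Vegfb did not differ between conditions beyond the spread of the libraries. It lies at chr19:6982473-6987651 on the minus strand (ENSMUSG00000024962.11). Control levels were 55.1 and 44.8 CPM on day 0, then 36.1 and 64.3, then 35.9 and 31.0, and 69.7 CPM on day 10. Those labelled knockdown were 46.7 and 40.8 CPM, then 42.9 and 37.0, then 41.3 and 33.4, and 66.2 CPM. The conditions overlapped at every replicated day, and the day 10 libraries were the highest of their condition. The averaged difference was -0.12 (SE 0.15, 95% interval -0.46 to 0.22, adjusted p = 0.604). It turned to 0.04 without replicate 2 of the day 3 controls and passed as lower, at -0.24 (adjusted p = 0.0409), without replicate 1, which leaves that library as the lone day 3 control.

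Angptl4 was too low to compare. It lies at chr17:33773750-33781830 on the minus strand (ENSMUSG00000002289.13), and its 14 libraries held 77 counts in all. Control libraries had 2 and 2 counts on day 0, then 1 and 6, then 8 and 12, and 4 on day 10. Those labelled knockdown had 1 and 8, then 8 and 3, then 5 and 9, and 8, and they overlapped the controls at every replicated day. In the fit of all 24346 genes without a filter the averaged log2 fold change was 0.03 (SE 0.50, adjusted p = 1), so a difference was not detectable at this depth.

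Within control, edgeR called 0 of the 4 ligands tested over time, and DESeq2 also called 0; at an unadjusted p under 0.05 the step from day 3 to day 5 of Angptl2 was the 1 value past it. Of all genes, 10.7% were called from day 0 to day 3, 1.04% from day 3 to day 5 and 8.13% from day 0 to day 5. From day 0 to day 5 Angpt2 changed by 0.22 (adjusted p = 0.844), Vegfc by 0.45 (adjusted p = 0.631), Angptl2 by 0.46 (adjusted p = 0.258) and Vegfb by -0.58 (adjusted p = 0.240). The values of Angptl2 and Vegfb passed when replicate 2 of the day 3 controls was left out (adjusted p = 0.00625 and 0.0123), at 0.47 and -0.56. Changes with time and differences between conditions use the same libraries, so they are not independent of each other.

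Per length, in the deposited RPKM (reads scaled to transcript length and library size), the ligands were far apart in level. In control the median was 33.4 RPKM for Vegfb (22.9 to 49.5), 24.3 for Angptl2 (12.4 to 34.6), 0.74 for Vegfc (0.60 to 1.31), 0.15 for Angpt2 (0.12 to 0.24), 0.06 for Angptl4 (0.02 to 0.29) and 0.01 for Angpt1 (0 to 0.15). In the libraries labelled knockdown the order was Angptl2 at a median of 34.6 RPKM (30.2 to 49.0), Vegfb at 30.9 (24.5 to 46.8), Angpt1 at 6.54 (0.81 to 12.8), Angpt2 at 0.63 (0.26 to 1.06), Vegfc at 0.28 (0.05 to 0.80) and Angptl4 at 0.13 (0.02 to 0.19). Angpt1 had the lowest median of the 6 in control, where the selection used its near absence, and the third where labelled knockdown. Of neighbours in that order, Vegfb and Angptl2 overlapped in both conditions, and Angptl4 overlapped Angpt1 and Angpt2 in control. Where labelled knockdown, the ranges over all days of Angpt1, Angpt2, Vegfc and Angptl4 each overlapped the next. Within every single library labelled knockdown, Angpt1 lay above Angpt2.

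**Figure D3:**
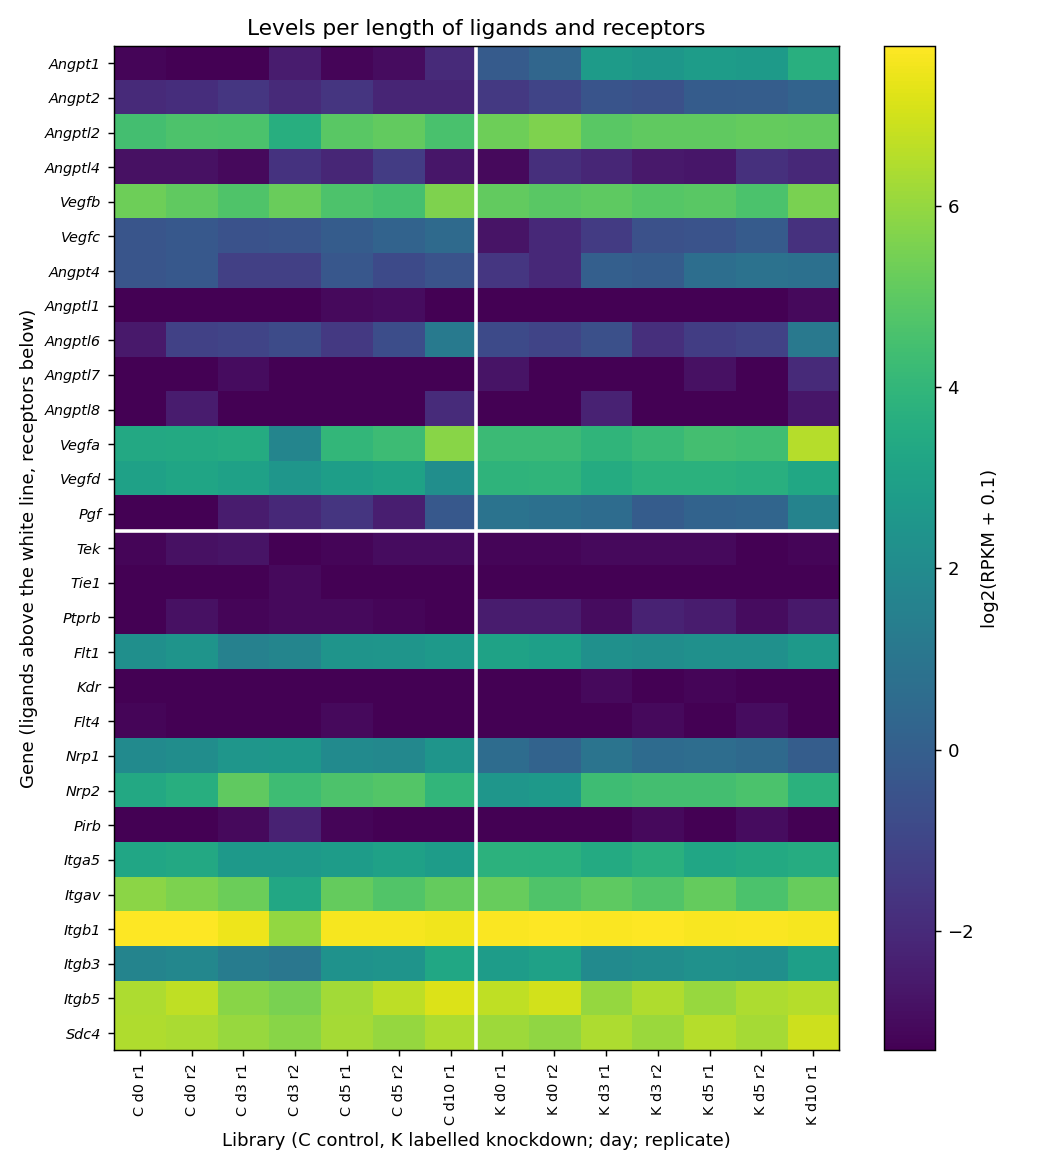
Heat map of log2(RPKM + 0.1) for the family's ligands (above the white line) and receptors and co-receptors (below it), 1 column per library, C for control and K for labelled knockdown, with day (d) and replicate (r); yellow is high and dark blue low. Angpt1 is dark in the 7 C columns and green in the K columns from day 3 on, Pgf is brighter and Nrp1 darker in the K columns, and Tek, Tie1, Kdr and Flt4 are dark throughout.

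Of the 9 other ligands of these families, 8 had a row, 5 were tested and 3 were called higher: Vegfa, Vegfd and Pgf. Of these 3, Pgf met the filter only through the libraries labelled knockdown, where it was high, so its call is a description. Of all genes tested, 15.0% were called higher and 11.9% lower. The median log2 fold change was 0.70 over the 5 ligands and -0.00 over all genes. Vegfa, the principal blood vessel growth factor, differed by 0.70 (SE 0.21, adjusted p = 0.0322; 0.51 without replicate 2 of the day 3 controls). Its control levels were 39.7 and 39.6 CPM on day 0, then 43.2 and 15.1, then 61.5 and 71.3, and 216 CPM on day 10. Those labelled knockdown were 69.3 and 68.8 CPM, then 56.1 and 64.4, then 81.5 and 77.6, and 366 CPM. All 6 replicated libraries labelled knockdown lay above the controls of their day, an ordering that 13.7% of all genes tested showed. The Vegfa call ended on leaving out any replicate of days 0 or 5 or any labelled knockdown one of day 3. Its estimates ran from 0.51 to 1.02 over the replicates left out. Vegfd, which binds the same receptor as Vegfc, was higher by 0.70 (SE 0.10, adjusted p = 0.000679) and passed at each day, at 0.76, 0.63 and 0.72.

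Pgf, placental growth factor, a ligand of Flt1 like Vegfb, had few counts in the control libraries of days 0, 3 and 5. Its control counts were 0 and 0, 2 and 2, 7 and 2, and 25, and those labelled knockdown 54 and 38, 46 and 19, 43 and 28, and 92. Of the controls only the day 10 library reached 10 counts, so Pgf met the filter through the libraries labelled knockdown, where it was high. Its call in the averaged comparison is therefore not used as support, and its ratios are a description. The count ratio of Pgf was at least 28.2-fold higher at day 0, taking 3 counts over the control group as the floor. It was 10.7 at day 3 (counting interval 3.99 to 40.5), 6.27 at day 5 (3.13 to 14.3) and 4.17 at day 10 (2.66 to 6.78, 1 library per condition). Angpt4, a further Tie2 ligand, turned with time. Its control counts were 26 and 26, then 13 and 7, then 32 and 15, and 31, and those labelled knockdown 11 and 5, then 45 and 28, then 89 and 64, and 72. It was lower at day 0 by -1.82 (SE 0.40, adjusted p = 0.0222) and higher at day 5 by 1.42 (SE 0.34, adjusted p = 0.0325), and the joint test between days passed (adjusted p = 0.0288), a call that ended on leaving out any replicate other than the day 3 controls (adjusted p up to 0.223). Averaged over days Angpt4 differed by 0.27 (adjusted p = 0.399; 0.0191 with limma on log2(RPKM + 1)) and Angptl6 by 0.16 (adjusted p = 0.807). Angptl1, Angptl7 and Angptl8 had at most 6 counts in any library.

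Of the receptors, Tek, Kdr, Flt4 and Tie1, which mark endothelium, were near 0 in both conditions, while Flt1 was expressed. Tek had at most 4 counts in a library, Kdr at most 2, Flt4 at most 3, Tie1 at most 1 and Pirb, a receptor of angiopoietin-like proteins, at most 4. Of the 15 receptors and co-receptors, 10 were tested. Of these 10, 3 were called higher and 2 lower, with a median of 0.16, beside 15.0% of all genes called higher and 11.9% lower. These counts moved on leaving out single replicates, and so did the calls over all genes. Nrp1, a VEGF co-receptor, was lower by -1.75 (SE 0.14, adjusted p = 1.61e-05), with 22.2 to 45.5 CPM in the 7 control libraries and 5.69 to 11.2 CPM in the 7 labelled knockdown. It passed at each day, at -1.73, -2.07 and -1.44. Nrp2, the co-receptor of Vegfc, was lower by -0.57 (SE 0.11, adjusted p = 0.00346). Itga5, a partner of Angptl2, was higher by 0.51 (SE 0.10, adjusted p = 0.00475) and Itgb3 by 0.56 (SE 0.09, adjusted p = 0.00140).

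Ptprb, a phosphatase of Tie2, was called higher at 2.02 (SE 0.66, adjusted p = 0.0461) on 0 to 24 counts a library, and stood at 3.74 without control replicate 2 of day 0. The call ended with the replicate block (adjusted p = 0.0555), with limma and without most single replicates. Flt1, which binds Vegfb and Pgf, was expressed in every library, at 33.4 to 73.3 CPM in control and 46.3 to 94.3 CPM where labelled knockdown. It did not pass at 0.26 (SE 0.11, adjusted p = 0.115) but did without replicate 2 of the day 3 controls (0.35, adjusted p = 0.000918). Itgav at -0.24 (adjusted p = 0.513), Itgb1 at 0.20 (adjusted p = 0.442), Itgb5 at 0.13 (adjusted p = 0.491) and Sdc4 at -0.02 (adjusted p = 0.915) did not pass; without that library Itgav passed as lower (-0.44, adjusted p = 0.0285), and with it as the lone day 3 control Itgb1 passed as higher (0.45, adjusted p = 3.62e-05).

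Of the genes that process or store the ligands, 2 of 9 tested were called higher and 3 lower, with a median of -0.24, beside the same 15.0% and 11.9% of all genes. Without the day 10 libraries 1 was called higher. The counts also moved on leaving out single replicates, and so did the calls over all genes. Adamts1, which cleaves matrix and binds VEGF, was higher by 1.80 (SE 0.18, adjusted p = 7.67e-05). Svep1, a matrix protein of lymphatic development, was lower by -1.61 (adjusted p = 0.000832), Thbs1, thrombospondin, by -1.77 (adjusted p = 0.00213) and Plau, urokinase, by -0.43 (adjusted p = 0.0192), the last call lost with limma (adjusted p = 0.0861 with a pseudocount of 1). Of the lipase and PPAR target genes, among which Angptl4 is usually counted, 5 of 10 tested were higher and 0 lower in edgeR, with a median of 0.64. At an unadjusted p under 0.05, 1 was lower, and 1 was called lower with DESeq2. Some were also called lower on leaving out single replicates, when the calls over all genes moved too. Of all genes, 15.0% were called higher and 11.9% lower. The lipase and PPAR target genes called higher included Pdk4 at 1.48 (adjusted p = 0.00105), Cpt1a at 1.13 (adjusted p = 0.00155) and Plin2 at 0.66 (adjusted p = 0.000681).

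Of the hypoxia response genes, a group to which Vegfa belongs, 0 of 13 tested were higher and 5 lower in edgeR, with a median of -0.30. Beside these, 15.0% of all genes were called higher and 11.9% lower. Of the 13, 1 was higher at an unadjusted p under 0.05, and 1 with DESeq2. Ankrd37 was at -1.45 (adjusted p = 0.000445), Higd1a at -1.09 (adjusted p = 0.00218), P4ha1 at -0.74 (adjusted p = 0.00127) and Slc2a1, a glucose transporter, at -0.30 (adjusted p = 0.0330, lost with limma at 0.198). Some were called higher and more lower without either day 3 control, and fewer lower without most other replicates. The calls over all genes moved in such fits as well. Of the other secreted angiogenic factors, 2 of 11 tested were higher and 2 lower, with a median of -0.25, shares near the 15.0% and 11.9% of all genes: Pdgfb, which recruits mural cells, at 3.44 (adjusted p = 4.31e-06) and Sema3c at 1.07 (adjusted p = 0.00435), against Pdgfa at -1.79 (adjusted p = 0.000252) and Cxcl12 at -0.48 (adjusted p = 0.0161, lost with limma at 0.109). Both counts moved on leaving out single replicates, and so did the calls over all genes. Of the secreted inhibitors of vessel growth, 5 of 9 tested were higher and 2 lower, with a median of 0.75, beside 15.0% and 11.9% of all genes. Fewer were called higher on leaving out some single replicates, when the calls over all genes moved too. Col18a1, the source of endostatin, was at 1.28 (adjusted p = 1.07e-05), Slit2 at 0.80 (adjusted p = 0.00740) and Serpinf1, also known as PEDF, at -0.74 (adjusted p = 0.00474). Sema3f, among the inhibitors called higher, had 0 to 9 counts in control and 12 to 32 where labelled knockdown. It met the filter only through the latter libraries, where it was high, so its call is a description.

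**Figure D4:**
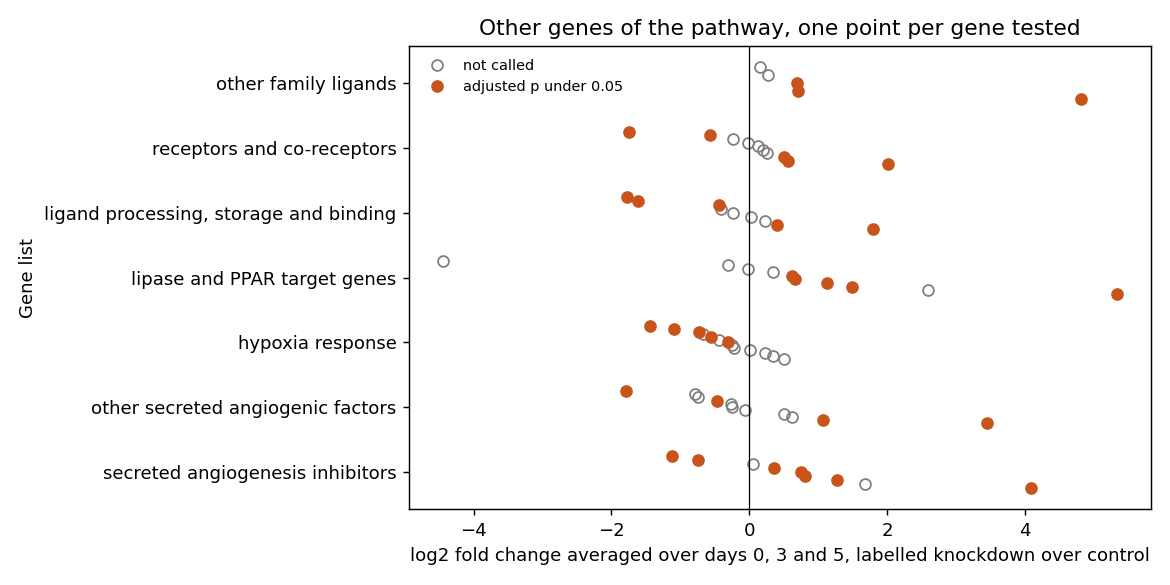
Averaged log2 fold change (labelled knockdown over control, days 0, 3 and 5) of each tested gene in 7 lists, filled where the edgeR adjusted p was under 0.05 and open where not; points are spread vertically only to separate them. Filled points lie on both sides of 0 in the receptor, processing, angiogenic factor and inhibitor lists, only to the right in the lists of other family ligands and of lipase genes, and only to the left in the hypoxia list.

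Markers of other cell types were measured beside these results. The 12 endothelial markers with a row summed to 0.835 to 3.69 CPM in control and 1.46 to 7.14 CPM where labelled knockdown; Cdh5 had at most 1 count in a library, and edgeR called 0 of the 3 tested, with 1 at an unadjusted p under 0.05 and 1 called by DESeq2. Macrophage markers summed to 2.10 to 6.02 and 3.69 to 10.7 CPM, with Ptprc at no more than 2 counts; the 1 tested, Lyz2, was called higher (1.16, adjusted p = 0.00303; 2.41 on day 5). Adipocyte markers summed to 5.14 to 9.94 and 1.88 to 4.99 CPM, with Adipoq at no more than 2 counts; the 1 tested, Cebpa, was called lower (-1.36, adjusted p = 0.000284). Mural cell markers, mostly Pdgfrb, which osteoblast-line cells also express, summed to 183 to 310 and 168 to 226 CPM. Of the 6 tested, Pdgfrb (-0.43, adjusted p = 0.00552) and Notch3 (-1.47, adjusted p = 0.000480) were called lower and Myh11 higher (adjusted p = 0.0256), a call that ended with limma, without day 3, without control replicate 2 of day 0 or day 5, and without labelled knockdown replicate 2 of day 0 or day 3 or either of day 5. Of all genes tested, 15.0% were called higher and 11.9% lower in the averaged comparison. The part of these markers in the results was not tested.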

How the data were processed

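RNA of MC3T3-E1 cells was DNase-treated, selected with oligo(dT) beads and made into directional libraries, per the labels' protocols. The submitters' processing notes name bcl2fastq, TopHat2, edgeR and GRCm38; their versions and the counting tool with its strand setting are not stated there. For the 14 libraries, the authors deposited unnormalized counts of 24346 genes and RPKM values of 24340 genes. Counts were fitted here with edgeR 4.0.16 (R 4.3.3; robust quasi-likelihood test, TMM, 8 group means, 6 residual degrees of freedom) over the 13130 genes that reached 10 counts in 2 libraries or more; 11216 were left out. Benjamini-Hochberg adjusted p under 0.05 was called. Day 10, with 1 library per condition, has no test. CPM are TMM-scaled. In the averaged comparison, the difference is the mean of days 0, 3 and 5.

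The ligands and gene lists were chosen with earlier results of these data known. Named genes were the 6 ligands, every other tested ligand and receptor, up to 4 called genes per further list by smallest adjusted p, and the 3 genes most correlated with each ligand; Alpl, Ibsp, Spp1, Myh11, Notch3 and the genes beside or overlapping Angpt1, Angpt2 and Angptl2 were added after their values were seen. The fit reported here took the libraries of a group as unpaired. Among the alternatives below, only the replicate block used replicate numbers as pairs. Same-numbered libraries deviated together weakly at days 0, 3 and 5 (r = 0.234, 0.141 and 0.228). Alternatives were DESeq2 1.42.0 (test or size factors), no filter, limma 3.58.1 on log2(RPKM + 1) or + 0.1, the replicate block, no day 10, no day 3, and leaving out each replicate. The fit was tested on simulated data.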

Additional observations from a re-analysis of the deposited data

Results flagged for a closer look

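For 5 of the named genes, the difference between conditions itself varied across days 0, 3 and 5 by the joint edgeR test. Of all genes tested 0.998% passed it, and Spp1 and Rspo2 were named after their values were seen. Angpt4 (adjusted p = 0.0288, range over the alternatives 0.000202 to 0.223) was lower on day 0 and higher on day 5 in the libraries labelled knockdown. Itgb3 (adjusted p = 0.0430, range 3.57e-05 to 0.255) was higher by 1.18 on day 0 and by 0.65 on day 3, and its day 5 value was -0.14. Sema3c (adjusted p = 0.0383, range 4.34e-06 to 0.195) was higher by 2.78 on day 0, with 5 and 10 control counts against 64 and 50, and its later values were 0.90 and -0.47. Spp1 (adjusted p = 0.0284, range 3.28e-10 to 0.219) was higher on days 0 and 3, with a day 5 value of -0.74. Rspo2 (adjusted p = 0.0458, range 1.15e-05 to 0.246) was lower by -1.62 on day 0, with later values of 0.45 and -0.82. All 5 calls ended on leaving out any 1 replicate other than the day 3 controls. Those of Itgb3 and Sema3c also ended with limma, those of Spp1 and Rspo2 with limma at a pseudocount of 0.1, that of Itgb3 without the filter, and those of Sema3c and Rspo2 with the replicate block (adjusted p = 0.0621 and 0.0750).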

How the results depend on the processing

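The averaged differences of Angpt2 and Vegfc kept their direction and call under all 20 alternatives, those of Angptl2 under all but 1 (without control replicate 1 of day 5). Without day 3, 2460 genes were called lower in the averaged comparison against 1561. Both limma settings called 1 ligand instead of 2 on day 0 and 1 instead of 0 on day 3. The replicate block changed no call of the 6 ligands; in the control step from day 0 to day 3 the values of Vegfb and Vegfc, -0.0010 and -0.0055 as reported, turned to 0.010 and 0.014 with the block, 0.023 and 0.011 with DESeq2 size factors, and 0.023 and 0.0081 with the DESeq2 test. Without day 3, Angpt4 (-0.20), Itgb1 (-0.014) and Macf1 (-0.047) turned sign, and Sdc4 turned to 0.0062 without the filter and to 0.072 and 0.073 with limma at pseudocounts of 1 and 0.1. None of these turned values passed the test; the cause was not tested.

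Leaving out each replicate in turn left a group with a lone library, assumed to vary like the others. Over those fits 1356 to 4189 genes were called higher and 953 to 3404 lower on average. The number of ligands called also moved, in the averaged comparison, at each single day, in the joint test and in the steps over time. The labelled knockdown step from day 3 to day 5 was the exception. Averaged values ran from 0.42 to 0.64 for Angptl2, from -0.24 to 0.036 for Vegfb, from -0.21 to 0.61 for Angptl6, from -0.44 to 0.099 for Itgav, from -0.087 to 0.039 for Sdc4 and from -0.082 to 0.51 for Macf1. On day 3 Vegfb ran from -0.68 to 0.15, and on day 5 Angptl2 from -0.011 to 0.17 and Vegfb from -0.0044 to 0.30. In control from day 0 to day 3 Angptl2 ran from -0.60 to 0.060, Vegfb from -0.46 to 0.36 and Vegfc from -0.17 to 0.21. Angpt2 in control ran from -0.84 to 0.097 between days 3 and 5 and from -0.36 to 0.58 between days 0 and 5, and Vegfb labelled knockdown from -0.26 to 0.047 between days 3 and 5. With 5 to 16 control counts, depth limits Angpt2, as it does Vegfc and Angptl4.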
